A study of Mus musculus with 12 samples.

Results

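The genes described here are 10 members of the cyclic nucleotide phosphodiesterase family, *Pde1a*, *Pde3a*, *Pde3b*, *Pde4a*, *Pde4b*, *Pde4d*, *Pde7a*, *Pde7b*, *Pde8a* and *Pde10a*, of 55401 gene identifiers quantified. They were taken as a named list, chosen with earlier results of these data known. Each identifier was matched to its symbol in GENCODE M21. The measurements come from whole-kidney bulk RNA-Seq of 12 male C57BL6 mice, 1 library per mouse. The mice were 8 weeks old and 6 of them received vehicle, a solution of 15% 2-hydroxypropyl-beta-cyclodextrin. The other 6 received a single i.p. dose of SK-124 at 40 mg/kg in the same solution, and no other agent or genetic change was named for either group. SK-124 is a small molecule that inhibits the salt-inducible kinases SIK2 and SIK3, and the comparison asks what its administration did to kidney transcripts. The time from injection to tissue collection for these libraries is not given in the sources used here. Whole kidney pools tubules, vessels, glomeruli and interstitium, so fewer cells of a type and less RNA per cell cannot be told apart.

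Cyclic nucleotide phosphodiesterases hydrolyze cAMP and cGMP, and so set how long and how far these second messengers act after a cyclase has made them. PDE4, PDE7 and PDE8 enzymes act on cAMP, PDE5, PDE6 and PDE9 on cGMP, and PDE1, PDE2, PDE3, PDE10 and PDE11 on both. In the kidney cAMP carries the signals of PTH and vasopressin, and one of its outcomes is PKA phosphorylation of the salt-inducible kinases.

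After SK-124, 8 of the 10 genes were higher, 1 was lower and 1 did not pass the test. *Pde10a*, *Pde3b* and *Pde7b* rose 4.76-fold, 2.51-fold and 2.48-fold, and *Pde4d* rose 1.93-fold. *Pde3a*, *Pde7a*, *Pde4b* and *Pde8a* rose by smaller factors, between 1.24-fold and 1.45-fold. *Pde4a* fell to 62.8% of its vehicle level, in the opposite direction to its paralogs *Pde4b* and *Pde4d*. *Pde1a* did not pass the test. Its mean level per unit length was the highest of the family, with a range that overlapped those of *Pde9a* and *Pde4c* in vehicle mice. Calls are those of edgeR's quasi-likelihood test on the expected counts, and "edgeR FDR" below is its Benjamini-Hochberg adjusted p over all 14159 genes tested, with a threshold of 0.05. Across those genes 24.4% were called, 10.8% higher and 13.5% lower, and the median log2 fold change was -0.01, beside a median of 0.48 for the 10 genes. Because the 10 genes were chosen with earlier results known, this contrast is a description and no test of the family. All 10 passed the filter on low counts.

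The depth was even, with 19244227 to 19771802 expected counts per library. SK-124-treated mice 1 to 3 stood apart in composition. Their 10 most abundant genes held 44.4% to 46.8% of counts, against 38.6% to 40.2% in SK-124-treated mice 4 to 6 and 39.9% to 43.2% in the vehicle mice. Scaling therefore mattered for small differences. Without TMM factors, the median log2 change over the genes tested moved to -0.12 and the calls from 1536 higher and 1917 lower to 777 higher and 3058 lower. The deposited TPM gave a similar split by limma on log2(TPM + 1), with 500 higher and 2130 lower and a median of -0.11. Of the 10 genes, 5 were called higher without TMM factors and 4 by limma on TPM, beside 8 in the reported fit, and 1 lower in each. As a check of the treatment, *Cyp27b1* rose by a log2 fold change of 2.56 (SE 0.22, edgeR FDR 2.35e-07) and *Cyp24a1* fell by 2.32 on the log2 scale (SE 0.48, edgeR FDR 0.00154).

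**Figure D1:**
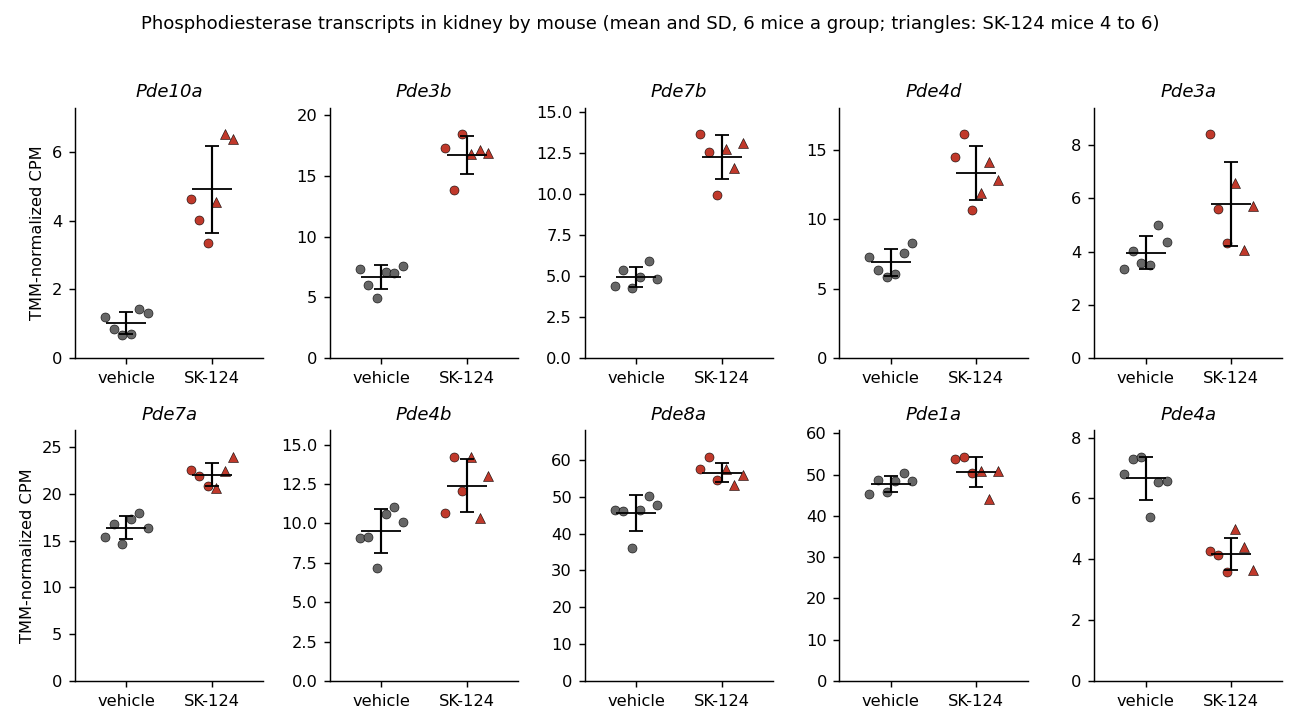
TMM-normalized CPM (read counts scaled to a fixed library total) of each gene in the 6 vehicle and the 6 SK-124-treated mice, 1 point per mouse, with the group mean and SD and with SK-124-treated mice 4 to 6 as triangles. The groups do not overlap for *Pde10a*, *Pde3b*, *Pde7b*, *Pde4d*, *Pde7a*, *Pde8a* and, in the lower direction, *Pde4a*, whereas those of *Pde3a*, *Pde4b* and *Pde1a* overlap.

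The promoter windows below are shown because CREB, the factor that the SIK-regulated CRTC coactivators bind, recognizes the cAMP response element, so its letters were searched for in every window of the 10 genes. RefSeq windows from the GRCm38.p6 build cover 250 bases before to 50 bases after an annotated start; 7 of the 10 genes have at least 1, giving 16 windows. *Pde3a*, *Pde3b* and *Pde7a* had no entry. The core motif TGACG, on either strand and hence also read as CGTCA, was present in 4 of the 16 windows (25.0%), 1 each for *Pde1a*, *Pde4a*, *Pde4b* and *Pde8a*, beside 20.8% of all 32851 windows of the same length. Counted by gene, 4 of 7 (57.1%) had it in at least 1 window, beside 23.0% of all genes; a gene with more windows has more chances to hold it, and *Pde1a* and *Pde4b* have 4 windows each and *Pde4a* 3. The full palindrome, which holds the core on each strand with the central bases shared, was in 0 of the 16 and in 1.79% of all windows. The windows of *Pde10a*, *Pde7b* and *Pde4d* held no core motif. For 3 genes that rose without one and 3 called genes that carry one, the 250 bases before the start are given 5′ to 3′ on the gene's strand, with core motifs in capitals. They lie at chr17:8801495-8801744 (plus strand), chr10:20548329-20548578 (minus strand), chr13:108653927-108654176 (plus strand), chr7:81213015-81213264 (plus strand), chr4:102421305-102421554 (plus strand) and chr9:21183851-21184100 (plus strand), in the order of the lines. The windows printed for *Pde10a*, *Pde7b*, *Pde4d*, *Pde4b* and *Pde4a* belong to starts inside the GENCODE gene, so transcripts from other starts are not covered by them. That of *Pde8a* belongs to a start upstream of the GENCODE gene, which begins at chr7:81213596. A match describes letters only, and its absence says only that they are not in this window.
Pde10a: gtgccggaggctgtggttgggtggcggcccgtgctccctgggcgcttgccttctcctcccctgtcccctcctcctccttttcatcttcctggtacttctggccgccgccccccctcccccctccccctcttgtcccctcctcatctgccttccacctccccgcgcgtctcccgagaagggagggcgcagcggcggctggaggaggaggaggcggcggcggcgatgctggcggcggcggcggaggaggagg
Pde7b: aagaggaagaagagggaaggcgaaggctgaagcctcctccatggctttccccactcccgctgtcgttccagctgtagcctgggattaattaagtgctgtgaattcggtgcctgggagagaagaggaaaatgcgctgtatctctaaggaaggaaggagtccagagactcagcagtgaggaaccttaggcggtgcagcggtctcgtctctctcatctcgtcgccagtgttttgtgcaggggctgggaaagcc
Pde4d: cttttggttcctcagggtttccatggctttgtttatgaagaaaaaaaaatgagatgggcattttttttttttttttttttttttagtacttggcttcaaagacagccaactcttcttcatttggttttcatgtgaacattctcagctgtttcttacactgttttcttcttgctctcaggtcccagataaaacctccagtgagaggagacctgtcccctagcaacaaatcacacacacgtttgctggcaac
Pde8a: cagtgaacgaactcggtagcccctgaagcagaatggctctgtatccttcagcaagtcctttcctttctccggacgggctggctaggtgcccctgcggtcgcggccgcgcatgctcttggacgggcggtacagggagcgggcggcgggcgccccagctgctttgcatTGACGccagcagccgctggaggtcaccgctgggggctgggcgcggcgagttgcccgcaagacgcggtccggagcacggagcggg
Pde4b: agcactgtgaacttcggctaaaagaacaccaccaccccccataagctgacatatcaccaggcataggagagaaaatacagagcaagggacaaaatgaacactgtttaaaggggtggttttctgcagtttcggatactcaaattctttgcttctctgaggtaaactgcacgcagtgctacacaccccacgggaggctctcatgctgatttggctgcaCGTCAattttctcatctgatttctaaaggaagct
Pde4a: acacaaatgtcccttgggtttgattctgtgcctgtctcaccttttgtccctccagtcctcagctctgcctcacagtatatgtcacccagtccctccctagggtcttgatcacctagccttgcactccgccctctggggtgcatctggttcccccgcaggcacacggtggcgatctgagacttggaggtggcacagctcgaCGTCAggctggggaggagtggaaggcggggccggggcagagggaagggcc
The 3 core motifs begin 84 bases before the start in *Pde8a*, 34 bases before it in *Pde4b* and 50 bases before it in *Pde4a*, that is, in 2 genes that rose and 1 that fell.

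PDE4 enzymes, the targets of rolipram, are cAMP-specific and are held near receptors and anchoring proteins by their variable amino ends. *Pde4d* (chr13:108449948-109953461, plus strand, GRCm38) had 114, 137.5 and 175 expected counts as the lowest, median and highest value in the vehicle mice, and 190, 251.5 and 282 after SK-124. Every SK-124-treated mouse was above every vehicle mouse, in CPM as in counts. This was a log2 fold change of 0.95 (SE 0.11, edgeR FDR 4.67e-06). Per length, its level was 2.48 ± 0.41 TPM in vehicle mice and 4.13 ± 0.77 TPM after SK-124 (mean ± SD, n = 6), with 5 of 6 treated mice above the vehicle range. *Pde4b* (chr4:102087543-102607259, plus strand) had 141, 197.5 and 233 counts in vehicle mice and 184, 229 and 287 after SK-124. Its groups overlapped, with 4 of 6 treated mice above the highest vehicle CPM. The log2 fold change of 0.38 (SE 0.11, edgeR FDR 0.0140; exact permutation p of log2(CPM + 0.5), two-sided, 0.0130) did not pass the test with either set of 3 treated mice alone (edgeR FDR 0.0664 with mice 1 to 3 and 0.0528 with mice 4 to 6) or without TMM factors (edgeR FDR 0.112).

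*Pde4a* (chr9:21165714-21213248, plus strand) was the only one of the 10 to fall. The vehicle mice had 107, 138.5 and 147 expected counts, and the SK-124-treated mice 64, 73 and 101. The groups did not overlap in counts, CPM or TPM. The level fell by 0.67 on the log2 scale (SE 0.10, edgeR FDR 0.000121), from 1.47 ± 0.19 to 0.84 ± 0.16 TPM. The exact permutation p was 0.00216, the smallest that 6 against 6 mice allow. The remaining paralog, *Pde4c*, stood at 15.7 ± 1.1 TPM in vehicle mice and 13.9 ± 1.3 TPM after SK-124 (log2 fold change -0.03, 95% interval -0.15 to 0.08, edgeR FDR 0.697). Of the 4 genes of this subfamily 2 were called higher and 1 lower, beside 10.8% higher and 13.5% lower over all genes tested. The call of *Pde4b* depended on the setting, as given above.

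PDE7 enzymes are cAMP-specific and insensitive to rolipram. *Pde7b* (chr10:20398004-20725078, minus strand) had 83, 99.5 and 124 expected counts in vehicle mice and 177, 233 and 258 after SK-124. No treated mouse came within the vehicle range, on any scale. Its log2 fold change was 1.31 (SE 0.10, 95% interval 1.11 to 1.51, edgeR FDR 2.42e-08), and its level went from 1.22 ± 0.21 to 2.68 ± 0.40 TPM. *Pde7a* (chr3:19223108-19311322, minus strand) had 286, 341 and 378 counts in vehicle mice and 372, 402.5 and 472 after SK-124. The counts of the groups overlapped, whereas the TMM-normalized CPM did not (14.6 to 17.9 against 20.6 to 23.9). The difference on the log2 scale was 0.43 (SE 0.06, edgeR FDR 7.12e-05). In TPM the groups overlapped, with 3 of 6 treated mice above the vehicle range, and limma on log2(TPM + 1) gave 0.20 with an adjusted p of 0.218.

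PDE8 enzymes have a very high affinity for cAMP. *Pde8a* (chr7:81213596-81334533, plus strand) was the second most abundant of the 10 per length, at 11.98 ± 1.94 TPM in vehicle mice and 13.3 ± 1.3 TPM after SK-124. Vehicle mice had 708, 933.5 and 1060 expected counts, and SK-124-treated mice 972, 1051.5 and 1165. CPM of the groups did not overlap (36.2 to 50.3 against 53.3 to 60.8), although counts and TPM did. The SK-124 group was higher by 0.31 on the log2 scale (SE 0.07, edgeR FDR 0.00259). Without TMM factors it was 0.20 (edgeR FDR 0.0996), beside a median of -0.12 for all genes on that scale. *Pde8b* was at 1.89 ± 0.24 TPM in vehicle mice and 1.78 ± 0.47 TPM after SK-124 and was not called (edgeR FDR 0.918).

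PDE3 enzymes hydrolyze both nucleotides, and cGMP competes with cAMP at their active site; PDE3B is known for carrying the insulin signal in fat and liver, and PDE3A for heart and vascular smooth muscle. *Pde3b* (chr7:114415281-114539251, plus strand) had the smallest p of the 10 genes. Its expected counts were 97, 143.5 and 161 in vehicle mice and 237, 331 and 343 after SK-124, with no overlap. SK-124-treated mouse 2, at 13.9 CPM, was the lowest of its group and still above the highest vehicle mouse, at 7.63 CPM. The log2 fold change was 1.33 (SE 0.10, 95% interval 1.13 to 1.53, edgeR FDR 2.15e-08). In TPM the level went from 1.37 ± 0.45 to 2.46 ± 0.23. Adipocytes express *Pde3b* too. Of 7 adipocyte markers 2 were tested and 0 called, beside 24.4% called over all genes tested. The summed CPM of the 7 ran from 67.9 to 122 in vehicle mice and from 20.99 to 89.1 after SK-124. *Adipoq*, *Plin1* and *Lep* were below the count filter. The part of adipocytes in the *Pde3b* difference was not tested.

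*Pde3a* (chr6:141249269-141507448, plus strand) was less certain. The vehicle mice had 68, 75.5 and 105 expected counts and the SK-124-treated mice 77, 104.5 and 145. The groups overlapped, with 4 of 6 treated mice above the highest vehicle CPM and SK-124-treated mouse 1 the highest of all, at 8.40 CPM. The log2 fold change was 0.54 (SE 0.16, edgeR FDR 0.0210; exact permutation p 0.0173). Without that mouse it was 0.41 (edgeR FDR 0.0514), SK-124-treated mice 4 to 6 alone gave 0.47 (edgeR FDR 0.0760), and without TMM factors 0.42 (edgeR FDR 0.0626). Of 7 smooth muscle and mural cell markers, *Acta2* and *Tagln* were called higher and *Pdgfrb* lower. *Myh11*, *Cnn1*, *Rgs5* and *Ren1* were not called. Over all genes tested 10.8% were called higher and 13.5% lower. The summed CPM of the 7 markers ranged from 88.9 to 146 in vehicle mice and from 112 to 162 after SK-124. The part of these cells in the *Pde3a* difference was not tested.

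PDE10A hydrolyzes both nucleotides and is best known from the medium spiny neurons of the striatum. *Pde10a* (chr17:8525372-8986648, plus strand) had the lowest mean level of the 10 in vehicle kidneys, at 0.19 ± 0.09 TPM, and the largest fold change of the 10. Expected counts were 13, 20.5 and 30 in vehicle mice and 60, 86 and 130 after SK-124. The lowest treated mouse was thus well above the highest vehicle mouse, with 60 counts against 30. The log2 fold change was 2.25 (SE 0.21, 95% interval 1.808 to 2.697, edgeR FDR 4.92e-07), and the level after SK-124 was 0.78 ± 0.38 TPM. Set against all vehicle mice, SK-124-treated mice 1 to 3 gave 1.96 and mice 4 to 6 gave 2.50, and both values passed the test.

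PDE1 enzymes are activated by calcium and calmodulin. *Pde1a* (chr2:79834453-80129458, minus strand) had 897, 972 and 1063 expected counts in vehicle mice and 880, 928.5 and 1030 after SK-124, and the groups overlapped on each scale. Its level was 17.9 ± 2.5 TPM in vehicle mice and 17.0 ± 1.2 TPM after SK-124. Its log2 fold change was 0.08 (SE 0.06, 95% interval -0.03 to 0.20, edgeR FDR 0.313; exact permutation p 0.113). Its sign turned without TMM factors (-0.03) and with limma on log2(TPM + 1) (-0.06), so no direction is given.

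Among the 10, counts alone separated the groups for 5 genes, *Pde10a*, *Pde3b*, *Pde7b*, *Pde4d* and *Pde4a*, and TMM-normalized CPM for *Pde7a* and *Pde8a* as well. Over all genes tested, all SK-124-treated mice were above all vehicle mice in TMM-normalized CPM for 6.32%, and below them for 6.65%. That share was not computed for counts, so the 5 genes have no such comparison on the count scale. A call of higher with a change of more than 2-fold was made for 3 of the 10 genes and for 1.73% of all genes. The choice of the 10 with earlier results known bears on these contrasts, so they are descriptions. Each of *Pde10a*, *Pde3b*, *Pde7b* and *Pde4d* kept its call under every setting tried, including limma on TPM, and so did *Pde4a*. The same cannot be said of *Pde3a*, *Pde4b*, *Pde7a* and *Pde8a*, which the settings on TPM left uncalled.

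**Figure D2:**
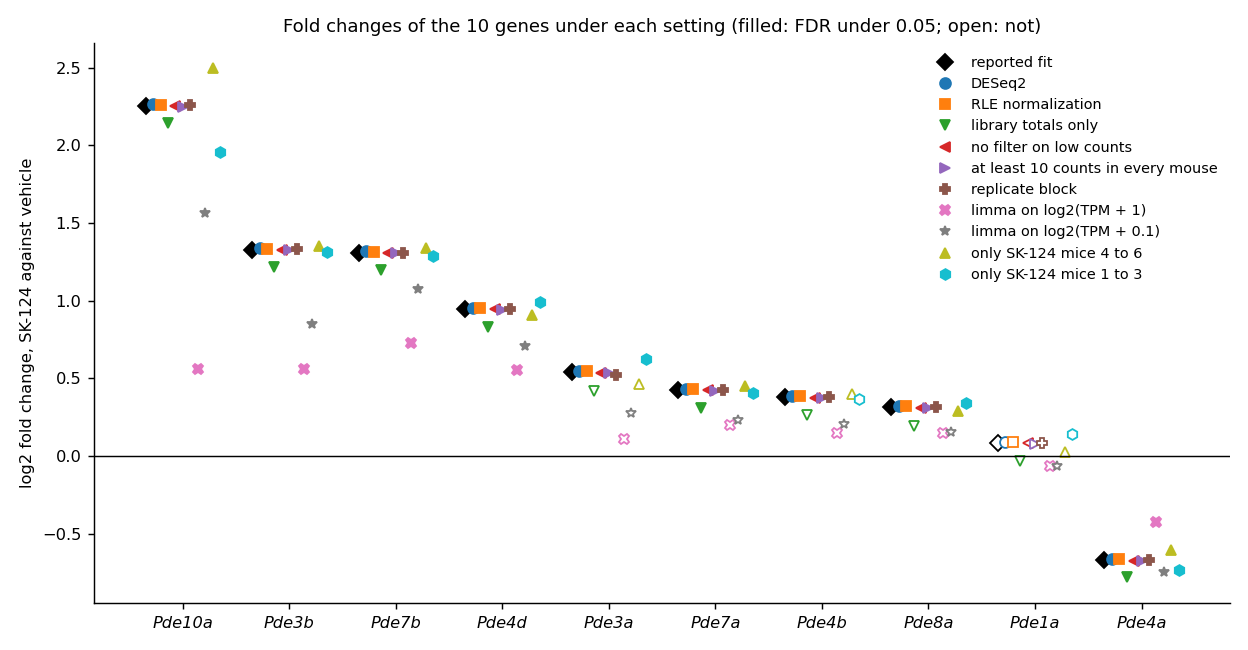
Log2 fold change of each gene (vertical axis) under the reported fit and 10 other settings, filled where the FDR was under 0.05. *Pde10a*, *Pde3b*, *Pde7b*, *Pde4d* and *Pde4a* are filled throughout, *Pde3a*, *Pde4b*, *Pde7a* and *Pde8a* are open in some settings, and *Pde1a* lies on both sides of 0 and is open in all.

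Of the other 11 genes that encode a catalytic subunit 8 were tested. Of these, 1 was called higher and 2 lower, beside 10.8% higher and 13.5% lower over all genes tested. Their median log2 fold change was -0.03. *Pde9a*, the cGMP-specific enzyme of highest affinity, fell by 0.64 on the log2 scale (SE 0.06, edgeR FDR 9.43e-07), from 17.4 ± 1.6 to 10.5 ± 2.0 TPM, with no overlap. *Pde6a*, the catalytic alpha subunit of the rod photoreceptor enzyme, fell by 0.41 (SE 0.09, edgeR FDR 0.00157), from 3.93 ± 0.28 to 2.74 ± 0.39 TPM. *Pde1c* rose by 0.73 (SE 0.18, edgeR FDR 0.00654) from 0.24 ± 0.04 to 0.36 ± 0.14 TPM, with 5 of 6 treated mice above the vehicle range, and was not called in TPM or when SK-124-treated mice 4 to 6 were left out. *Pde1b* had a log2 fold change of -0.57 (SE 0.23, edgeR FDR 0.0797), which passed the threshold without SK-124-treated mouse 4 (-0.70, edgeR FDR 0.0455) and without TMM factors (-0.69, edgeR FDR 0.0434). *Pde2a* (log2 fold change 0.05) and *Pde5a* (-0.00), both of which change sign between scalings, were not called, and reads of *Pde2a* could be shared with an overlapping gene, *Gm45837*. *Pde11a* was below the count filter, and *Pde6b* and *Pde6c* had no count in any mouse.

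By substrate, 5 of 8 cAMP-specific genes were called higher and 1 lower, 4 of 7 tested dual-specificity genes were called higher and 0 lower, and 0 of 3 tested cGMP-specific genes were called higher and 2 lower. Over all genes tested 10.8% were called higher and 13.5% lower. Whether the classes differ was not tested.

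**Figure D3:**
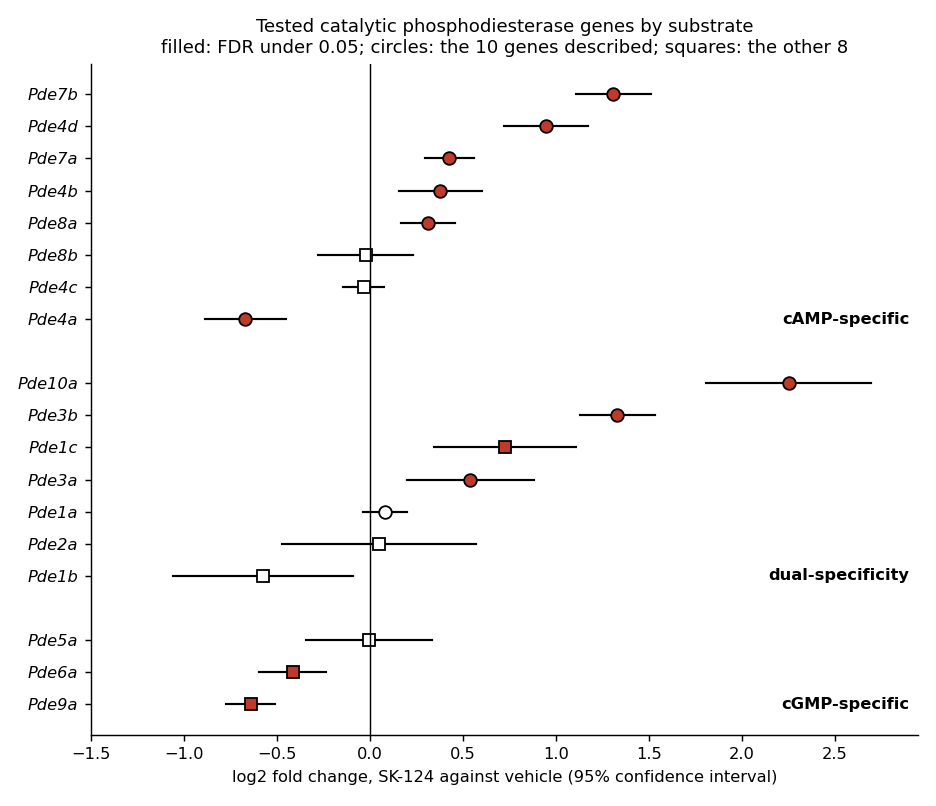
Log2 fold change with 95% confidence interval (horizontal axis) of the 18 catalytic phosphodiesterase genes tested, grouped by substrate, filled where the edgeR FDR was under 0.05. The cGMP-specific genes lie at or below 0, from -0.64 to -0.00 (*Pde5a*, near 0, changes sign between scalings), and the cAMP-specific ones between -0.67 and 1.31.

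Per length, the family was led in vehicle kidneys by *Pde1a*, *Pde9a* and *Pde4c* (17.9, 17.4 and 15.7 TPM), whose ranges over mice overlapped, followed by *Pde8a* at 11.98 TPM. *Pde7a* at 4.94 TPM came next, then *Pde6a* (3.93), *Pde2a* (3.80), *Pde4d* (2.48), *Pde4b* (2.43) and *Pde8b* (1.89 TPM). Each of these overlapped its neighbour in this order, and *Pde2a* spread from 1.73 to 5.71 TPM. *Pde7a* and *Pde6a*, with minima of 3.88 and 3.45 TPM, did not overlap *Pde4d* and *Pde4b*, with maxima of 3.04 and 2.88 TPM. *Pde4a*, *Pde3b* and *Pde7b*, from 1.47 to 1.22 TPM, did not differ beyond their spread, nor did *Pde3a* and *Pde10a* at 0.43 and 0.19 TPM from their neighbours. After SK-124 *Pde9a* was in the fourth place, and *Pde7b* and *Pde3b* stood at 2.68 and 2.46 TPM, above *Pde4a* at 0.84 TPM. The 21 catalytic genes summed to 88.4 ± 8.3 TPM in vehicle mice and 84.0 ± 8.9 TPM after SK-124. On the TMM scale, as CPM per kilobase, the sums were 95.6 ± 3.4 and 100.8 ± 4.2, so the direction of the sum depends on the scaling. Of the summed TPM the 10 genes held 50.1% ± 3.3 in vehicle mice (45.5% to 53.7%) and 60.1% ± 2.3 after SK-124 (57.5% to 63.6%), without overlap. Their own sums overlapped in TPM, at 34.16 to 51.85 in vehicle mice and 43.53 to 55.52 after SK-124. As CPM per kilobase the sums did not overlap (41.9 to 51.5 and 57.3 to 64.4). The 10 were chosen with earlier results known, so their share is a description only. Of the same summed TPM the cAMP-specific enzymes held 47.6% ± 1.3 and 53.8% ± 1.4, the cGMP-specific ones 25.0% ± 2.5 and 16.4% ± 1.6, and the dual-specificity ones 27.4% ± 2.9 and 29.7% ± 0.7. Within the sum, *Pde4d* went from 2.79% ± 0.31 to 4.94% ± 0.98, *Pde8a* from 13.5% ± 1.1 to 15.8% ± 0.5 and *Pde10a* from 0.21% ± 0.09 to 0.91% ± 0.38. These shares do not depend on the scaling between libraries, and a share rises when another gene falls.

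**Figure D4:**
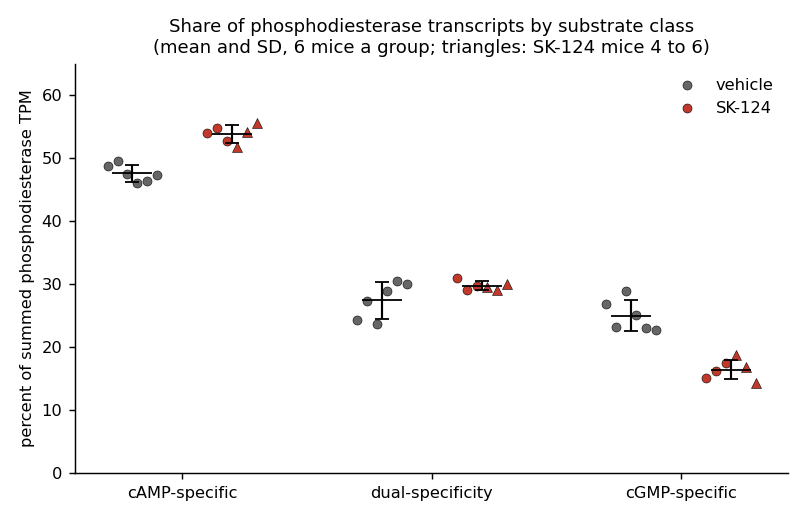
Percent of the summed TPM of the 21 catalytic phosphodiesterase genes held by each substrate class, 1 point per mouse, with mean and SD and with SK-124-treated mice 4 to 6 as triangles. All SK-124-treated mice are above the vehicle mice for the cAMP-specific class (51.7% to 55.6% against 46.1% to 49.5%) and below them for the cGMP-specific class (14.4% to 18.7% against 22.8% to 28.9%).

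These genes have several transcripts each, from 2 annotated for *Pde3a* to 20 for *Pde4d*, and RSEM reports a gene length averaged over them by abundance. That length was compared with limma, over 12054 genes whose length varied. Of those, 10 were called (0.083%), and none was a phosphodiesterase gene. The largest difference among the 10 genes was that of *Pde3b*, whose mean length was 4920 ± 1018 bases in vehicle mice and 5874 ± 581 bases after SK-124 (log2 difference 0.27, SE 0.13, 95% interval -0.01 to 0.55, limma adjusted p 0.849; exact permutation p 0.0736). For *Pde10a* and *Pde3a* the interval was wide, from -0.45 to 0.60 and from -0.43 to 0.48, and a shift in the transcripts used was not detectable at these counts. For *Pde4a*, *Pde4b*, *Pde7b* and *Pde8a* the intervals stayed within -0.06 to 0.07. Of the 10 genes none had a fractional count in any mouse, so RSEM assigned none of their reads in part to another gene. Annotated genes on the opposite strand overlap *Pde3a*, *Pde4d*, *Pde7a*, *Pde7b*, *Pde8a* and *Pde10a*, and whether the counting used strand is not stated. That of *Pde10a* includes a protein-coding gene, *Gm17087*. Annotated genes on the same strand also overlap *Pde3a*, *Pde4d* and *Pde7b*.

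Genes that make, sense or read cyclic nucleotides were measured beside them. Their lists were chosen with earlier results of these data known, and over all genes tested 10.8% were called higher and 13.5% lower. Of 11 adenylyl and guanylyl cyclase genes tested, 6 were called lower and 0 higher, with a median log2 fold change of -0.39. Those with the smallest p were *Npr1*, the receptor for atrial natriuretic peptide (-0.46), and *Gucy1b1* and *Gucy1a1*, the subunits of the nitric oxide receptor (-0.96 and -0.94). Of 10 Gs-coupled receptors and Gs tested, 4 were called lower and 0 higher, led by the vasopressin receptor *Avpr2*, which fell by 1.17 on the log2 scale (SE 0.11, edgeR FDR 4.96e-07). The glucagon receptor *Gcgr* fell by 0.36 and *Adora2b* by 1.10. Among 12 effectors tested 2 were called higher and 4 lower. *Rapgef3*, which encodes a cAMP-activated exchange factor for Rap, fell by 0.26. The PKA inhibitors *Pkia* and *Pkib* went opposite ways, with log2 fold changes of -0.27 (edgeR FDR 0.0102) and 0.68 (edgeR FDR 0.0212). Of 13 anchoring proteins and phosphodiesterase scaffolds tested, 3 were called higher and 3 lower. *Akap12*, a scaffold that binds PKA and PDE4D, rose by 1.49 (SE 0.12, edgeR FDR 9.18e-08), *Akap13* by 0.50 and *Pde4dip*, a PDE4D-binding protein of the Golgi and centrosome, by 0.40.

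Of 9 genes known to respond to cAMP, 7 were called higher and 0 lower, with a median of 1.52. Over all genes tested 10.8% were called higher. This list was also chosen with earlier results of these data known, so its count and median are a description only. *Crem*, the CREB-related factor, rose by 1.74 (SE 0.09, edgeR FDR 5.50e-10), *Per1* by 2.42 (SE 0.18, edgeR FDR 3.23e-08) and *Pck1*, of gluconeogenesis, by 1.84 (SE 0.13, edgeR FDR 2.15e-08). Several of these genes also follow the circadian clock or feeding. Clock genes, chosen after their values were seen, differed between the groups too, with *Arntl* at a log2 fold change of 0.50 (edgeR FDR 0.00272) and *Dbp* at -1.77 (edgeR FDR 9.52e-05). The part of the time of day in the differences described here was not tested.

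**Figure D5:**
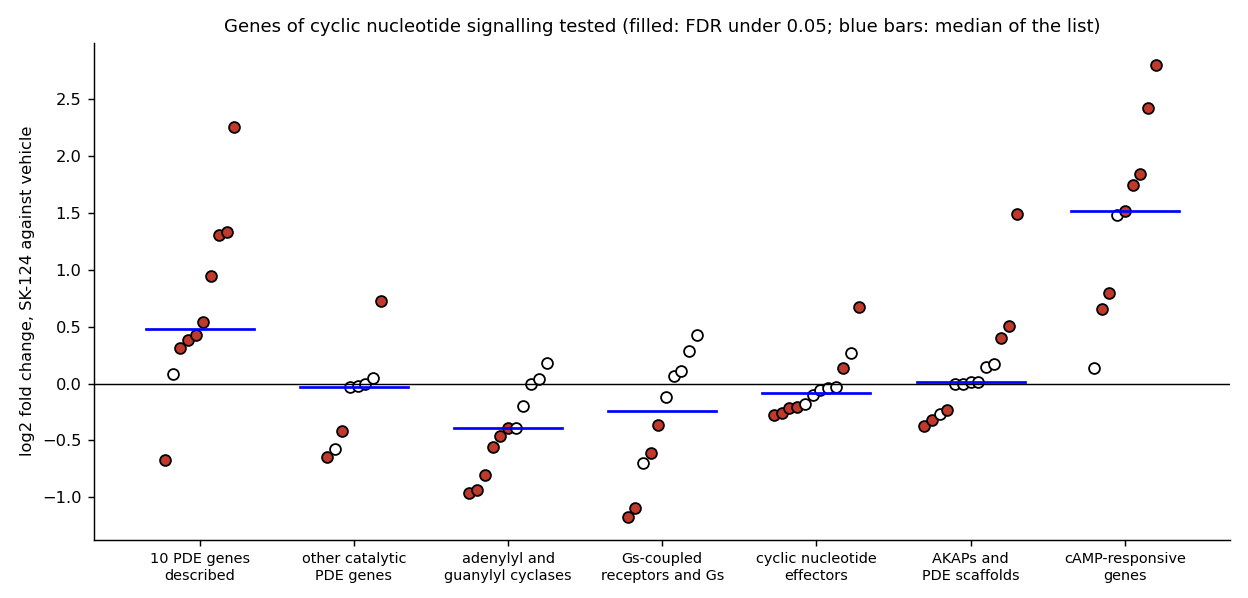
Log2 fold change (vertical axis) of every tested gene of each list, 1 point per gene, filled where the edgeR FDR was under 0.05, with the median of the list as a bar. The 10 phosphodiesterase genes have a median of 0.48, the cyclases one of -0.39 and the cAMP-responsive genes one of 1.52. All lists were chosen with earlier results of these data known.

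The markers of kidney cell types were measured beside these results. Over all genes tested 24.4% were called. The labelled tissue carried its defining markers, and the 7 proximal tubule markers summed to 7560 to 8526 CPM in vehicle mice and 6972 to 8931 CPM after SK-124, with 1 of 7 called, lower (*Slc13a3*). Among 6 endothelial markers *Kdr* and *Ehd3* were called lower, and the list summed to 163 to 237 CPM in vehicle mice and 136 to 231 CPM after SK-124. For the thick ascending limb 1 of 4 markers was called, higher, for the distal convoluted tubule 0 of 4, for podocytes 1 of 5, higher, and for red blood cells 0 of 5. In the collecting duct *Aqp2* was called higher and *Avpr2* and *Hsd11b2* lower, and *Slc26a4* and *Foxi1* of intercalated cells were called higher and *Slc4a1* lower. Of 7 macrophage markers *Cd14* was called higher and *Cd68* lower, and of the 2 of 6 lymphocyte markers tested both were called lower (*Cd79a* and *Igkc*), with the list at 2.86 to 9.63 CPM in vehicle mice and 0.70 to 2.14 CPM after SK-124. Of 8 adrenal markers 1 was tested and not called. The part of cell composition in the phosphodiesterase differences was not tested.

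The transcripts whose level varied most like *Pde3b*, after centring log2(CPM + 0.5) within each group, were *Zbtb1* (Pearson r 0.88, Spearman rho 0.75), *Grb14* (0.88 and 0.66) and *Nkiras2* (0.87 and 0.66), over 12 mice that share their scaling factors, given as a description only.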

How the data were processed

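Whole-kidney RNA-Seq libraries from 6 vehicle and 6 SK-124-treated mice, sequenced on a BGISEQ500, were analysed. The authors deposited an RSEM gene table per mouse, holding unnormalized expected counts (RSEM's read estimates) together with TPM and FPKM, which RSEM scaled to effective length and library total. The submitters' processing notes name STAR 2.7.2b, RSEM 1.3.0, FastQC, DESeq2 and mm10. The deposited gene length is the mean of transcript lengths weighted by abundance. Strand use is not given in the sources used here.

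The 10 genes and all gene lists were chosen with earlier results of these data known. By rule the 10 genes and the 11 other catalytic genes are named, and of other lists up to 3 with the smallest p; other marker genes were named after their values were seen. GENCODE M21 (GRCm38) held 54349 of the 55401 identifiers in the same version. Expected counts were rounded, scaled by TMM, filtered with filterByExpr and tested with edgeR 4.0.16 (quasi-likelihood, no block, all 12 mice, biological coefficient of variation 0.101). SEs are those of the log2 fold change. Lengths were tested with limma 3.58.1. Single genes were tested by exact permutation over 924 splits. P-values and intervals reflect the spread between mice. No pair of libraries of the same group agreed within sampling noise (30 pairs, chi-square per degree of freedom at least 4.41). Pairs across the groups were not examined. The edgeR, DESeq2 and limma tests were checked on simulated data, and the exact permutation test was not. DESeq2 1.42.0, RLE, library totals, other filters, limma on TPM, the replicate block, leaving out each mouse and each set of 3 SK-124-treated mice were the alternatives. A planned comparison of protein sequences was not made here.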

Additional observations from a re-analysis of the deposited data

Results flagged for a closer look

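Among 56 groups of 6 mice examined (CPM of the 18 tested phosphodiesterase genes and transcript length of the 10 described), 2 held a mouse whose gap to the nearest of the others was large against the range of the group, where chance alone gives about 1 in 20, or 2.8. *Pde3b* in SK-124-treated mouse 2 was at 13.9 CPM, below the nearest mouse of its group at 16.8 CPM and above every vehicle mouse. *Pde8a* in vehicle mouse 3 was at 36.2 CPM, below the nearest vehicle mouse at 46.0 CPM.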

How the results depend on the processing

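Of the 10 genes, *Pde10a*, *Pde3b*, *Pde7b*, *Pde4d* and *Pde4a* stayed called in the same direction under all alternatives run, and DESeq2, RLE, both other filters and the replicate block changed no member's call. Deviations of same-numbered mice correlated weakly or not at all (-0.04, 0.18, 0.22, 0.02, -0.13 and -0.02, with 2 of 6 vehicle mice closest to their own number). The labels name no pairing, and correlations this weak over 6 mice per group cannot exclude one. With the replicate block 3466 genes were called against 3453, and 5 genes against 10 for transcript length. With library totals 777 genes were called higher and 3058 lower, and 5 members higher: *Pde3a* (0.42), *Pde4b* (0.26) and *Pde8a* (0.20) were no longer called and *Pde1a* turned to -0.034. With limma on log2(TPM + 1), 500 genes and 4 members were higher, *Pde3a* (0.11), *Pde4b* (0.15), *Pde7a* (0.20) and *Pde8a* (0.15) were not called and *Pde1a* was at -0.061; with log2(TPM + 0.1) the counts were 498 and 4 and the values 0.28, 0.21, 0.23, 0.16 and -0.064. With only SK-124-treated mice 4 to 6, 1267 genes were lower, and *Pde3a* (0.47) and *Pde4b* (0.40) were not called; with only mice 1 to 3, 2298 genes were called, 1233 lower, and *Pde4b* (0.37) was not called. Both of these settings hold fewer mice; the cause was not tested further. Uncalled genes changed sign as follows: *Pde2a* was -0.062 with library totals, -0.070 and -0.082 in TPM and -0.18 with mice 1 to 3; *Pde5a* 0.0053 by DESeq2, 0.0042 with RLE and 0.13 with mice 1 to 3; *Pde8b* 0.11 with mice 4 to 6. Leaving out each mouse in turn gave ranges of -0.10 to 0.19, -0.078 to 0.097 and -0.076 to 0.044 for *Pde2a*, *Pde5a* and *Pde8b*, and 0.41 to 0.63 for *Pde3a*, lost only without SK-124 mouse 1.

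For transcript length, 2 genes were called with only mice 1 to 3 and 3 to 21 on leaving out each mouse in turn. Log2 differences in length then ran from -0.14 to 0.17 for *Pde10a*, -0.027 to 0.020 for *Pde1a*, -0.11 to 0.11 for *Pde3a* and -0.015 to 0.089 for *Pde7a*. With only mice 4 to 6 they were -0.035 for *Pde10a*, -0.035 for *Pde3a*, -0.0044 for *Pde4b* and -0.0029 for *Pde8a*, and with only mice 1 to 3 0.0014 for *Pde4a*. Shares of summed TPM moved by less than 1 SD with FPKM or with CPM per kilobase. Of the 10 genes *Pde10a* had the lowest counts, at 13 to 30 in vehicle mice, and *Pde11a*, at 4 to 10 counts, was too low to be tested.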
